A study of Mus musculus with 6 samples.

Results

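Molecular chaperones of the heat shock protein families, the J proteins that work with them and the ring-shaped chaperonin TRiC were described in wild-type mouse embryonic fibroblasts exposed to low oxygen. The genes were taken by name from the deposited gene table: protein-coding rows with 1 gene name that begins with Hsp (followed by a digit or by a, b, d, e or h), Dnaja, Dnajb, Dnajc or Cct2 to Cct8, together with Tcp1, and without Hspbap1 and Hspbp1. This gave 77 genes of 20859 protein-coding rows with a single name. The cells were of wild-type genotype, had been immortalised with SV40 and were kept for 16 h at 21% oxygen (normoxia, 3 samples) or 0.5% oxygen (hypoxia, 3 samples). The series design calls the replicates of each condition biological, and the authors combined them into 1 FPKM per gene and condition. FPKM are fragments per kilobase of transcript, scaled for the depth of the library in a way that the sources used here do not give. No value therefore carries an SD, and the depth is unknown. All samples share the SV40 background, and the large T antigen of that virus has a J domain of its own that works with cellular HSC70.

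Chaperones bind unfolded protein and release it for folding. HSP70 proteins do so in cycles of ATP hydrolysis, started by J proteins, which bring the client and trigger hydrolysis, and ended by exchange factors such as the HSP110 proteins, which release the nucleotide. HSP90 acts later, on nearly folded clients such as kinases and steroid receptors, small heat shock proteins hold unfolded clients without using ATP, and TRiC encloses newly made actin and tubulin in a chamber of paired rings. The cytosol, the endoplasmic reticulum (ER) and the mitochondria each have their own set. Heat shock factor 1 (HSF1) drives many of the cytosolic genes under stress, and the unfolded protein response drives the ER genes.

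The words rose and fell are kept for genes with a q below 0.05 in the Cuffdiff test of the authors' deposited table. Of the 77 genes 64 were tested, and the other 13 did not exceed 0.230 FPKM in either condition. The untested genes include forms known from testis or muscle (Dnajb3, Dnajb7, Dnajb8, Dnajb13, Dnajc5b, Dnajc5g, Hspa1l, Hspb3, Hspb7, Hspb9, Cct6b and Cct8l1) and the neuronal auxilin gene Dnajc6, and 7 of them are listed at 0 in both conditions. Among the tested genes 18 rose, 25 fell and 21 had no call. Over all 14575 tested measurements of the table the authors called 57.9%, 28.9% higher and 29.0% lower, against 43 of 64 chaperone genes called (67.2%). The chaperone set holds only protein-coding rows with 1 gene name. Over the 11712 tested rows of that kind 7448 (63.6%) were called, 3676 higher and 3772 lower, so the share called among chaperone genes was near that of like rows. Counts for families, compartments and partner lists below are to be read beside these shares. Of the chaperone genes 10 rose and 18 fell by at least 1.5-fold, which 17.9% and 19.1% of all tested measurements did. At least 2-fold, 4 rose and 9 fell, beside 9.03% and 9.87% of all tested measurements. The q of 30 of the 43 is 0.000139, the smallest in the authors' deposited table. Below, a q is given beside a called gene only where it is larger.

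The median difference of log2(FPKM + 1) was -0.19 over the 63 genes with a mean of at least 1 FPKM, and 0.0029 over the 12167 measurements of the table past the same filter. Of the 14 tested chaperone genes with a mean of 1 to 10 FPKM 3 rose (21.4%), 4 fell (28.6%) and the median was -0.19. At that level 25.2% of the 4605 tested measurements rose, 35.1% fell and the median was -0.099. Falls were thus not more frequent among chaperone genes at this level. Among the 30 chaperone genes with a mean of 10 to 100 FPKM 10 rose, 15 fell and the median was -0.25. Over the 6517 tested measurements in that range 2282 rose, 1919 fell and the median was 0.043. Of the 19 chaperone genes that averaged 100 FPKM or more, 5 rose and 5 fell, and the median was -0.048, whereas over the 1005 tested measurements at that level 44.3% rose, 20.7% fell and the median was 0.17. Rises and falls of at least 1.5-fold stood side by side among the HSP70 and HSP110 genes, the class B and class C J proteins and TRiC, as the plots of levels and of changes show.

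**Figure D1:**
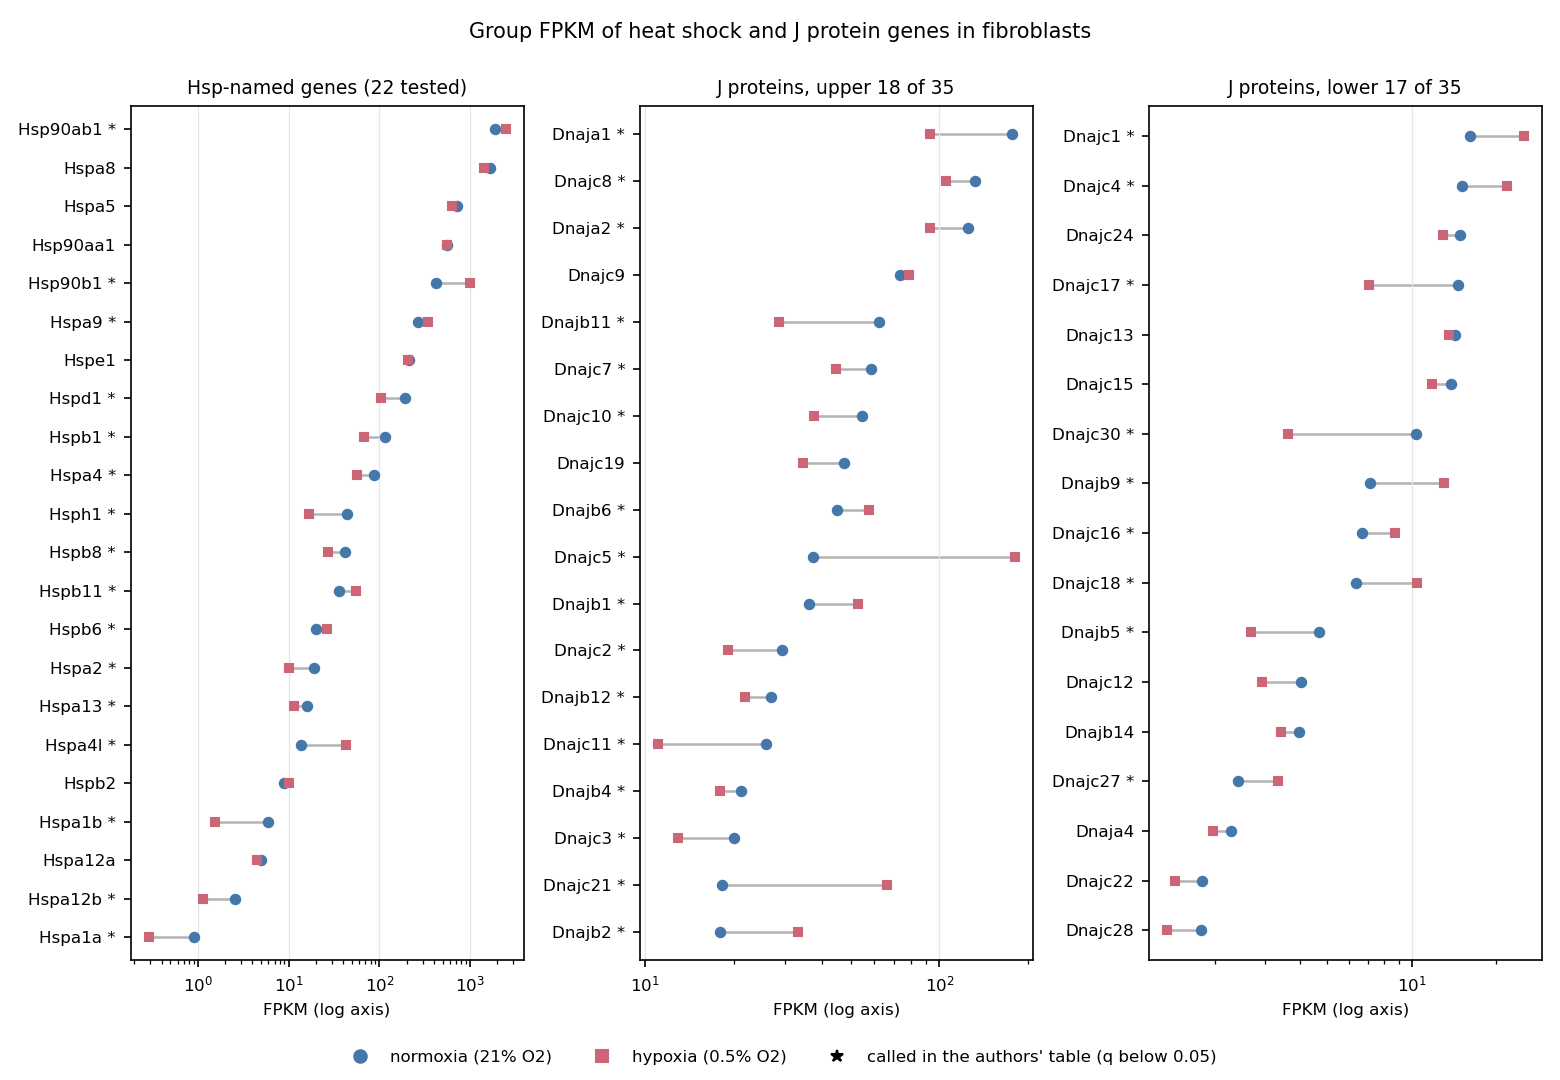
Group FPKM (log axis, a different range in each panel) of the 22 tested Hsp-named genes and the 35 tested J protein genes, in normoxia (circles) and hypoxia (squares), ordered by the normoxic value, with an asterisk on genes called in the authors' table. Hsp90b1 moves from 423 to 997 FPKM, Dnajc5 from 37.2 to 181 FPKM and Hspa1b from 5.95 to 1.53 FPKM, while Hspa8, Hspa5 and Hspe1 hardly separate.

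**Figure D2:**
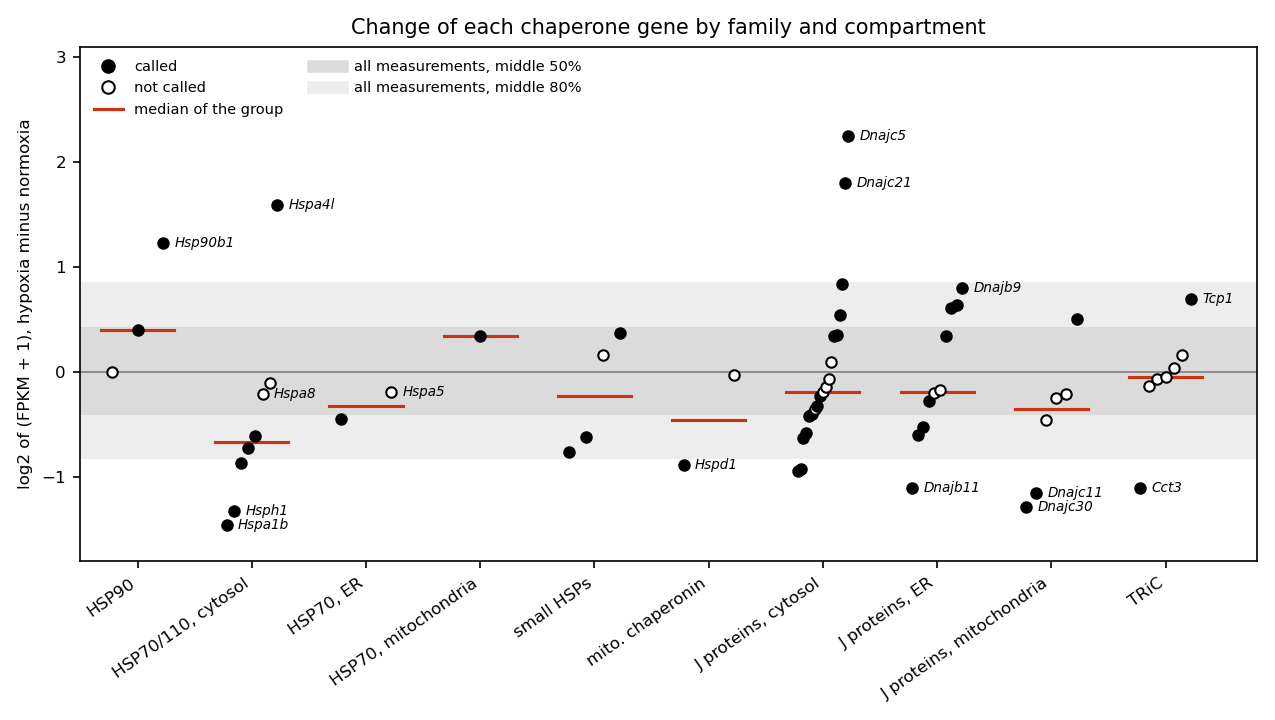
Difference of log2(FPKM + 1), hypoxia minus normoxia, of the genes with a mean of at least 1 FPKM by family and compartment (filled: called by the authors; open: not called; red line: median of the group; Hspb11 not drawn), over the middle 50% and middle 80% of all measurements past the same filter (dark and light grey). Dnajc5, Dnajc21, Hspa4l and Hsp90b1 lie above the light band, and Hspa1b, Hsph1, Dnajc30, Dnajc11, Dnajb11 and Cct3 are among the genes below it.

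The cells were checked against marker lists. Of 10 fibroblast markers with a row 9 had a mean of at least 1 FPKM, 2 of which rose, 4 fell and 3 had no call. Col1a1 was at 463 and 451 FPKM in normoxia and hypoxia and was not called, while Fap was at 0.0688 and 0.00930 FPKM. Vim rose from 883 to 2249 FPKM, and Col3a1 fell from 328 to 182 FPKM. Of 10 markers of other cell types with a row 7 stayed below 0.1 FPKM in both conditions, the leukocyte marker Ptprc among them (listed at 0 and 0.00222 FPKM). The keratin gene Krt18 was high at 313 FPKM and rose to 443 FPKM, Cd68 rose from 1.32 to 2.27 FPKM (q = 0.00669 in the authors' deposited table) and Epcam stood at 5.97 and 5.22 FPKM. The summed level of this list went from 320 to 450.4 FPKM, and that of the fibroblast list from 2473 to 3817 FPKM. The part of either list in the results was not tested. All 8 genes chosen as a check of the response to low oxygen rose, Slc2a1 from 65.1 to 473 FPKM. In these bulk samples a change in the share of some cells and a change in RNA per cell cannot be told apart.

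HSP90 genes were higher or not called, and the ER form changed most. Hsp90b1, which encodes the ER chaperone GRP94 (chromosome 10, 86690209 to 86705509 on GRCm38), rose from 423 to 997 FPKM, 2.36-fold. The constitutive cytosolic form Hsp90ab1 was the most abundant gene of all 77 in both conditions and rose from 1856 to 2460 FPKM (1.33-fold, q = 0.00275 in the authors' deposited table). The inducible cytosolic form Hsp90aa1 was level at 555 and 554 FPKM (q = 0.991 in the authors' deposited table). The share of Hsp90b1 in the summed FPKM of the 3 genes thus went from 14.9% to 24.9%, and that of Hsp90aa1 from 19.6% to 13.8%.

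Cytosolic HSP70 and HSP110 genes mostly fell: of 9 tested 6 fell, 1 rose and 2 were not called, while 29.0% of all tested measurements fell. Hspa8, the gene of the constitutive HSC70, supplied 90.3% of the summed FPKM of these genes in normoxia and 91.4% in hypoxia. It stood at 1657 and 1434 FPKM and was not called (q = 0.198 in the authors' deposited table). The stress-inducible pair Hspa1b and Hspa1a (chromosome 17, 34956436 to 34959238 and 34969190 to 34972156) was low and fell further, Hspa1b from 5.95 to 1.53 FPKM (3.88-fold) and Hspa1a from 0.908 to 0.286 FPKM (3.17-fold). Of the 50-base words of the longest Hspa1b transcript 62.3% also occur in Hspa1a, so the split between both genes is uncertain, but both values fell. Hspa2, best known from testis, fell from 19.0 to 9.98 FPKM, and Hspa12b, an atypical member known from endothelium, fell from 2.55 to 1.15 FPKM. Its relative Hspa12a stood at 4.93 and 4.53 FPKM and was not called.

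The 3 genes of the HSP110 group, exchange factors for HSP70, moved apart. Hsph1 (HSP105; chromosome 5, 149614287 to 149636376) was at 43.7 FPKM in normoxia and fell 2.60-fold to 16.8 FPKM. Hspa4 (APG-2) fell from 87.6 to 57.2 FPKM, 1.53-fold. Hspa4l (APG-1; chromosome 3, 40744495 to 40796103) rose from 13.6 to 43.2 FPKM, 3.18-fold. Hspa4l was therefore the least abundant of the 3 in normoxia, with 9.40% of their summed FPKM, and held 36.9% in hypoxia, while Hsph1 went from 30.1% to 14.3%.

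Small heat shock proteins also fell in part. Hspb1, which encodes HSP25 (the mouse counterpart of human HSP27), fell from 116 to 67.7 FPKM (1.71-fold), and Hspb8, a partner of BAG3 in the removal of aggregates, fell from 42.0 to 27.1 FPKM (1.55-fold). Hspb6 rose from 20.0 to 26.2 FPKM (q = 0.00994 in the authors' deposited table). Hspb2 stood at 8.94 and 10.1 FPKM and was not called, although Cryab, the small heat shock protein gene with which it lies head to head, fell from 51.0 to 30.9 FPKM. The exons of Cryab on the other strand overlap 30.2% of those of Hspb2. The library kit keeps strand, but a strand setting of the authors' counting is not given. Hspb11, which carries a heat shock protein name but encodes the intraflagellar transport protein IFT25, rose from 36.1 to 55.8 FPKM.

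J protein genes were divided between directions, as were the measurements of the whole table, and the largest rises of the whole set were here. Of 35 tested 11 rose, 14 fell and 10 were not called. This is 71.4% called, beside 57.9% of all tested measurements and 63.6% of protein-coding ones with 1 gene name. Among the 19 in the cytosol, nucleus or on cytosolic membranes 6 rose, 8 fell and 5 were not called. Dnajc5 (chromosome 2, 181520485 to 181555133), which encodes the cysteine string protein of vesicle membranes, rose from 37.2 to 181 FPKM, 4.85-fold, and so passed from below Dnaja1 and Dnajc8 to the highest level of all J protein genes. Dnajc21 (chromosome 15, 10446756 to 10470516), whose product acts in the assembly of the large ribosomal subunit, rose from 18.3 to 66.4 FPKM, 3.62-fold. Dnajc2, which encodes the J protein bound to ribosomes, fell from 29.2 to 19.2 FPKM, 1.52-fold.

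The class A J proteins are general partners of HSC70. Dnaja1 (DJA1) fell from 176 to 92.6 FPKM (1.90-fold), Dnaja2 fell from 125 to 92.8 FPKM (1.34-fold, q = 0.00708 in the authors' deposited table), and Dnaja4 stood at 2.28 and 1.97 FPKM without a call. In class B the stress-inducible HSP40 gene Dnajb1 rose from 36.0 to 53.1 FPKM (1.47-fold), so that its ratio to Dnaja1 went from 0.204 to 0.574. Dnajb2, whose product passes clients to the proteasome, rose from 18.0 to 33.2 FPKM (1.84-fold) and the suppressor of aggregation Dnajb6 from 44.9 to 57.7 FPKM (1.29-fold, q = 0.00232 in the authors' deposited table). Dnajb5 fell from 4.70 to 2.68 FPKM (1.75-fold) and Dnajb4 from 21.1 to 18.0 FPKM (q = 0.0298 in the authors' deposited table). Class B in the cytosol thus held 3 rises and 2 falls, and class A no rise.

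Of 8 further class C genes of the cytosol and nucleus 1 rose, 3 fell and 4 were not called. Dnajc17, a splicing-linked J protein gene, fell from 14.6 to 7.08 FPKM (2.06-fold, q = 0.000269 in the authors' deposited table), and the spliceosome component gene Dnajc8 from 132 to 105 FPKM (1.25-fold, q = 0.00178 there). Dnajc7, whose product links HSP70 and HSP90, fell from 58.8 to 44.4 FPKM with a q of 0.0484 in the authors' deposited table, the closest of all called members to the threshold. The histone chaperone gene Dnajc9 (73.3 and 78.7 FPKM), the endosomal Dnajc13 (14.2 and 13.5 FPKM), Dnajc24 (14.8 and 12.9 FPKM) and Dnajc12 (4.03 and 2.94 FPKM) were not called. Dnajc27 rose from 2.41 to 3.34 FPKM (q = 0.000269 in the authors' deposited table).

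In the ER the major chaperones and their J proteins diverged, with 5 rises, 5 falls and 3 genes not called among 13 tested. Over all tested measurements 28.9% rose and 29.0% fell, so a mix of directions is common to the table. Placement in the ER rests on general knowledge, and 10 of the 13 also carry a GO term for the ER in the deposited table, of which 3 rose, 5 fell and 2 were not called. Hspa5, which encodes BiP (the HSP70 of the ER, on chromosome 2 from 34771970 to 34777547), had 722 FPKM at normal and 631 FPKM at low oxygen, without a call (q = 0.231 in the authors' deposited table). Since Hsp90b1 rose, the ratio of Hsp90b1 to Hspa5 went from 0.586 to 1.58, and the order of both genes turned round. Without Hsp90b1 the summed FPKM of the ER genes was 944 in normoxia and 806 in hypoxia, and with it 1367 and 1803.

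Among the J proteins of the ER Dnajb11 (ERdj3, on chromosome 16 from 22857845 to 22879634), which hands unfolded clients to BiP, fell from 62.6 to 28.6 FPKM (2.19-fold). Dnajc3, the gene of P58IPK, fell from 20.1 to 12.9 FPKM (1.56-fold), and Dnajc10 (ERdj5), whose product reduces disulfides, fell from 54.4 to 37.6 FPKM (1.45-fold). Dnajb9 (ERdj4), which acts in degradation of misfolded ER proteins and restrains IRE1, rose from 7.09 to 13.1 FPKM (1.84-fold; chromosome 12, 44205559 to 44210326). Dnajc1 (ERdj1), which binds ribosomes, rose from 16.1 to 25.1 FPKM (1.56-fold, q = 0.0153 in the authors' deposited table). Dnajb9 therefore went from 0.113 to 0.457 of the level of Dnajb11.

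Of the remaining ER genes 2 rose, 2 fell and 2 were not called. Hspa13 fell from 16.0 to 11.5 FPKM, and Dnajb12, an ER membrane J protein of protein degradation, fell from 26.9 to 21.9 FPKM (q = 0.00928 in the authors' deposited table), while its close relative Dnajb14 was at 3.98 and 3.42 FPKM and not called. Dnajc18 rose from 6.34 to 10.5 FPKM, and Dnajc16 from 6.65 to 8.72 FPKM (q = 0.000395 in the authors' deposited table). Dnajc22 was at 1.80 and 1.44 FPKM and was not called. Dnajc16, Dnajc18 and Dnajc22 are those without an ER term in the deposited table.

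Genes of the unfolded protein response carry the ER stress element, searched as CCAAT, any 9 bases and CCACG on both strands in RefSeq promoters of GRCm38.p6 (250 bases before to 50 bases after the start). It was found in 0.119% of all 32851 promoters, and 3 of the 62 chaperone genes with a promoter in the set had it: Hsp90b1, Hspa5 and Dnajc3. The sequences are shown because these genes share the element and differ in outcome, Hsp90b1 having risen, Hspa5 not being called and Dnajc3 having fallen. Capitals mark the element or its reverse complement. The stretch of Hsp90b1 (chr10:86705510-86705694, minus strand, bases 250 to 66 before the start) holds 2 matches on opposite strands, that of Dnajc3 (chr14:118937682-118937931, plus strand) holds 1, and of Hspa5 the 30 bases around its match are given (chr2:34772020-34772049, plus strand).
Hsp90b1: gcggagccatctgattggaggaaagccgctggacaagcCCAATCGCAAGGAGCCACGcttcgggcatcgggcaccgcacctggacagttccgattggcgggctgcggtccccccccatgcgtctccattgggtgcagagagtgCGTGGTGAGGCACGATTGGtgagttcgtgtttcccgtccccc
Hspa5: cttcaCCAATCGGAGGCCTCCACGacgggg
Dnajc3: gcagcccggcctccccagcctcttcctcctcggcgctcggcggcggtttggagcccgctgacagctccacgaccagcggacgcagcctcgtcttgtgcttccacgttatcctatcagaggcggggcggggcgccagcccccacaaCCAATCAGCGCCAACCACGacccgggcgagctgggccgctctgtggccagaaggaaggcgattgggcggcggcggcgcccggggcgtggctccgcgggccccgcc

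Partners of the ER chaperones were as divided. From a list of 13 genes 12 had a row of their own and were tested, of which 5 rose, 5 fell and 2 were not called. Sil1, an exchange factor of BiP, rose from 19.4 to 35.8 FPKM (1.84-fold), and Hyou1, the HSP110-like exchange factor of BiP, fell from 63.7 to 37.4 FPKM (1.70-fold). Sdf2 rose from 31.5 to 50.7 FPKM (q = 0.00254 in the authors' deposited table), and Creld2 fell from 78.5 to 49.0 FPKM. The same split appeared among partner genes with the ER stress element: Canx (calnexin) rose from 166 to 227 FPKM (q = 0.000875 in the authors' deposited table), Creld2 fell, and Calr (calreticulin), at 894 and 803 FPKM, was not called. Over the 6 genes with the element, 3 of them chaperone family members, 2 rose, 2 fell and 2 were not called.

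**Figure D3:**
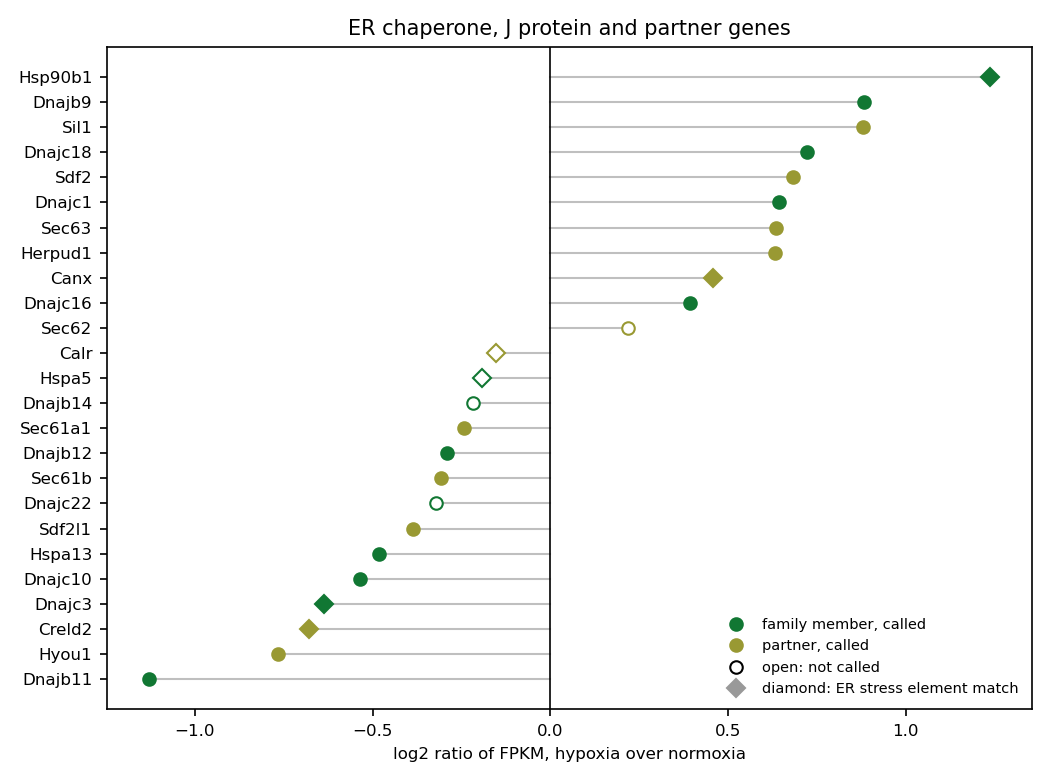
Log2 ratio of FPKM, hypoxia over normoxia, for the 13 ER members (green) and 12 partner genes (olive), filled where called by the authors, with diamonds for genes whose promoter holds the ER stress element. Diamonds lie on both sides of 0, Hsp90b1 at 1.24 and Creld2 and Dnajc3 at -0.68 and -0.64.

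Mitochondrial chaperone genes were divided between 2 rises, 3 falls and 4 genes not called. The share called was 55.6%, beside 57.9% of all tested measurements. Hspa9, which encodes mortalin, the HSP70 that pulls proteins into the matrix, rose from 269 to 343 FPKM (1.27-fold, q = 0.000991 in the authors' deposited table). Hspd1, the gene of the HSP60 chaperonin ring, fell 1.86-fold, from 194 to 104 FPKM. Hspe1, the gene of the HSP10 lid that closes the ring, stood at 212 and 208 FPKM and was not called (q = 0.912 in the authors' deposited table). The ratio of Hspd1 to Hspe1 went from 0.915 to 0.502. The processed pseudogene Hspd1-ps3, which holds 42.8% of the 50-base words of the longest Hspd1 transcript, fell as well, from 8.19 to 3.14 FPKM.

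Hspd1 and Hspe1 lie head to head (chromosome 1, 55077835 to 55088243 on the minus strand and 55088132 to 55091307 on the plus strand). RefSeq gives Hspe1 a start at 55088148 and Hspd1 a start at 55087932, with 215 bases between them, and a further Hspd1 start lies inside Hspe1. Between these starts lie 2 overlapping matches to the heat shock element, searched as GAA, any 2 bases, TTC, any 2 bases and GAA on both strands and present in 0.603% of all promoters. They are shown because 1 stretch of DNA lies between the starts of a gene that fell and a gene that was not called. The 30 bases around them are given as read from each gene, for Hspe1 at chr1:55088051-55088080 and for Hspd1 at chr1:55088055-55088084, with the matches in capitals.
Hspe1: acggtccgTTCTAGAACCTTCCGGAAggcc
Hspd1: gcggggccTTCCGGAAGGTTCTAGAAcgga

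The J proteins of mitochondria included the larger falls of this compartment. Dnajc30 fell from 10.3 to 3.65 FPKM (2.84-fold; chromosome 5, 135064202 to 135065862), although the exons of Bud23 on the other strand overlap 26.2% of its exons. Dnajc11, a partner of the MICOS complex that shapes cristae, fell from 25.8 to 11.1 FPKM (2.34-fold; chromosome 4, 151933691 to 151982137). Dnajc4 rose from 15.1 to 21.9 FPKM. The import motor J protein genes Dnajc19 (47.4 and 34.3 FPKM, q = 0.266 in the authors' deposited table) and Dnajc15 (13.8 and 11.8 FPKM) were not called, and neither was Dnajc28 (1.78 and 1.35 FPKM), which is without a mitochondrial GO term in the table. Among 10 mitochondrial partner genes 4 rose, 3 fell and 3 were not called. Trap1, the HSP90 of mitochondria, fell from 50.3 to 38.8 FPKM, and Dnlz, which keeps mortalin soluble, fell from 12.1 to 4.53 FPKM. Clpp, a matrix protease gene, fell from 45.0 to 33.9 FPKM. Hscb, a J protein for iron-sulfur clusters, rose from 15.4 to 29.5 FPKM, and the unfoldase gene Clpx rose from 14.8 to 23.5 FPKM. Of the exchange factors of mortalin, Grpel1 stood at 19.9 and 19.6 FPKM without a call, and Grpel2 rose from 6.22 to 8.53 FPKM (q = 0.000269 in the authors' deposited table).

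Only 2 of the 7 tested TRiC genes were called, and in opposite directions. Each ring of TRiC holds 1 copy of every subunit. Tcp1 (CCT1; chromosome 17, 12915701 to 12925067) rose from 403 to 652 FPKM, 1.62-fold, and Cct3 (chromosome 3, 88297116 to 88321767) was at 221 FPKM and fell 2.17-fold to 102 FPKM. The other 5 differed by at most 1.12-fold and were not called: Cct2 (318 and 307 FPKM), Cct4 (144 and 161 FPKM), Cct5 (310 and 319 FPKM), Cct7 (344 and 313 FPKM) and Cct8 (183 and 175 FPKM). The eighth subunit, Cct6a, shares its row with the small nucleolar RNA Snora15 and is outside the set. That row stood at 251 and 206 FPKM and was not called (q = 0.150 in the authors' deposited table). The highest of the 7 transcripts was 2.81 times the lowest in normoxia (Tcp1 over Cct4) and 6.40 times in hypoxia (Tcp1 over Cct3), and the coefficient of variation over the 7 genes went from 34.2% to 62.7%. Exons of Acat3 on the other strand overlap 11.4% of the exonic length of Tcp1, and the deposited locus of Tcp1 is longer than the gene, while no gene in the annotation overlaps exons of Cct3.

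**Figure D4:**
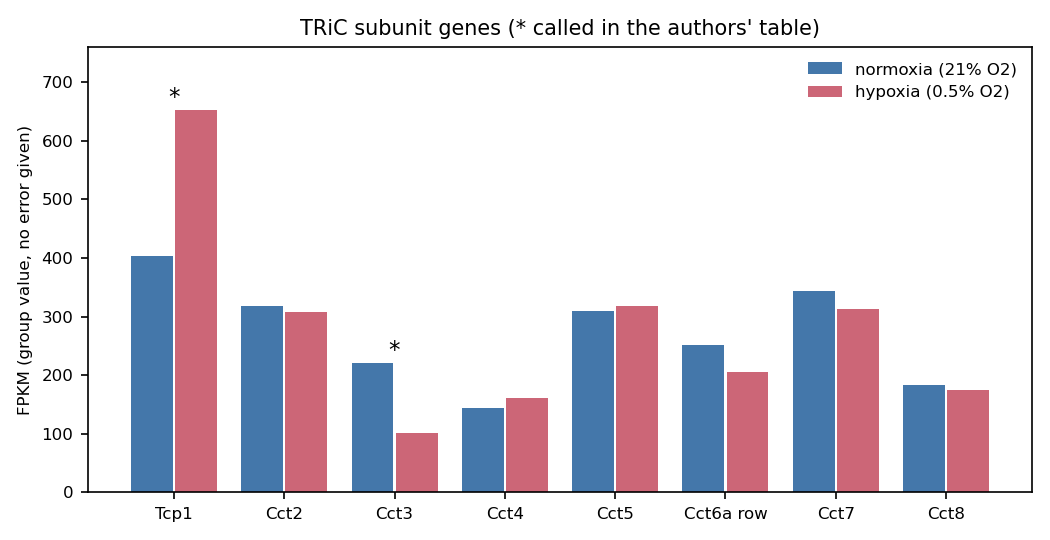
Group FPKM of the 7 TRiC subunit genes and of the row that holds Cct6a, in normoxia (blue bars) and hypoxia (red bars), with an asterisk on called genes and no error bars, since only group values exist. Tcp1 rises from 403 to 652 FPKM, Cct3 falls from 221 to 102 FPKM, and the other bars differ little between conditions.

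Prefoldin, which delivers actin and tubulin to TRiC, and other TRiC partners were mostly not called, with 1 rise, 2 falls and 6 not called of 9 tested. Vbp1 rose from 54.2 to 67.6 FPKM (q = 0.00156 in the authors' deposited table), Pfdn6 fell from 114 to 89.7 FPKM (q = 0.00243 there) and Txndc9 fell from 49.4 to 33.9 FPKM.

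HSP90 co-chaperones were lower in 10 of 17 tested cases and higher in 2, with a median difference of -0.41 on the log2(FPKM + 1) scale. Over all tested measurements 29.0% were called lower and 28.9% higher, and the median of those past the filter was 0.0029. Unc45a, which assists myosin folding, fell from 21.5 to 9.07 FPKM, Chordc1 from 28.4 to 12.6 FPKM, Fkbp5, a regulator of steroid receptors, from 47.1 to 23.8 FPKM, and Rpap3 from 26.9 to 15.8 FPKM. Stip1 (HOP), the bridge between HSP70 and HSP90, rose from 287 to 346 FPKM (q = 0.00956 in the authors' deposited table) and Sugt1 from 80.7 to 101 FPKM (q = 0.0325 there). Of 12 exchange factors and co-chaperones of HSP70 6 rose, 2 fell and 4 had no call, with a median of 0.35. Bag2 rose from 19.9 to 40.1 FPKM, Ttc1 from 26.0 to 41.9 FPKM and St13 (HIP) from 165 to 255 FPKM. Hspbp1, an exchange factor, fell from 34.5 to 11.8 FPKM and Bag5 from 15.4 to 10.6 FPKM.

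The transcription factor genes of the heat shock response moved little or in opposite directions. Hsf1 fell from 44.6 to 33.9 FPKM (1.32-fold, q = 0.000638 in the authors' deposited table), Hsf2 rose from 17.4 to 29.3 FPKM (1.68-fold), and Hsf4 (11.3 and 12.0 FPKM) and the HSF1-binding Hsbp1 (113 and 110 FPKM) were not called. Among other heat shock and aggregate-handling genes 3 rose, 6 fell and 1 was not called of 10 tested. Hspbap1, left out of the family by the rule, fell from 4.29 to 1.57 FPKM, Vcp, the segregase of protein degradation, from 190 to 101 FPKM, and Cryab fell as given above. Hikeshi, which carries HSP70 into the nucleus, rose from 47.6 to 76.1 FPKM and the ubiquitin gene Ubb from 293 to 432 FPKM. Among J domain proteins without a Dnaj name in these lists, Sec63 rose from 48.7 to 75.5 FPKM (q = 0.000518 in the authors' deposited table), Hscb rose as given above, and Gak rose from 34.9 to 46.1 FPKM (q = 0.00264 there).

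**Figure D5:**
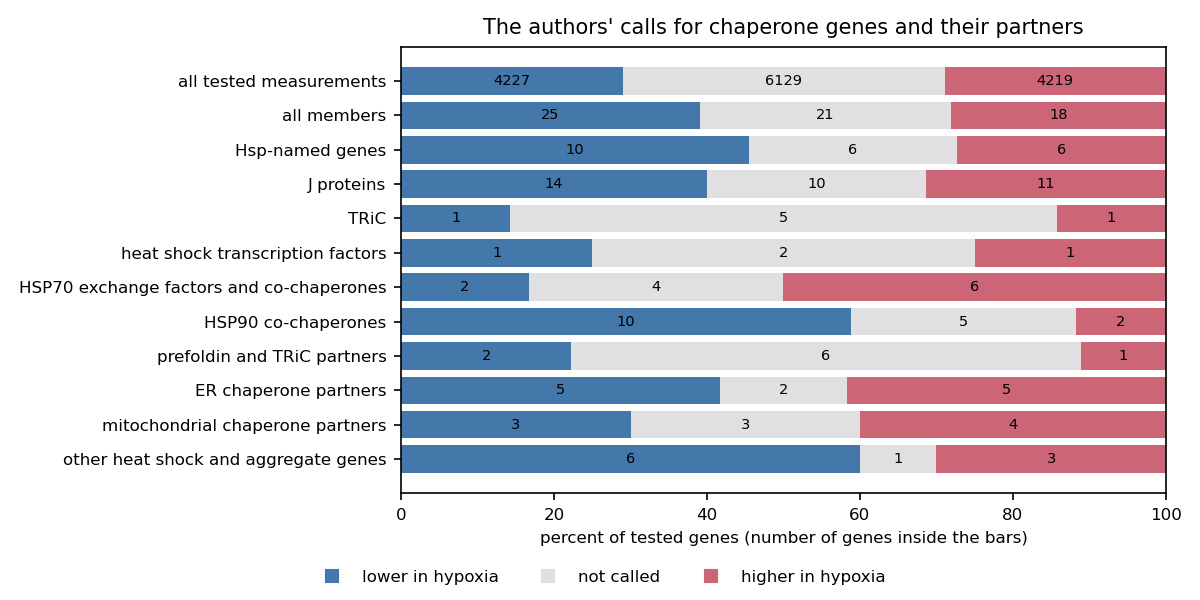
Percent of tested genes that the authors called lower (blue), did not call (grey) or called higher (red), with the number of genes in each bar, for all measurements, for the chaperone families and for 7 lists of partner genes. HSP90 co-chaperones have 10 lower and 2 higher, HSP70 exchange factors and co-chaperones 2 lower and 6 higher, and TRiC 1 of each.

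The heat shock element was found in 4 of the 62 chaperone genes with a promoter: Hspd1 and Hspe1 above, Hsph1, which fell, and Dnajb6, which rose. The 30 bases around the other 2 elements are shown because these are the same motif beside opposite changes. That of Hsph1 (chr5:149636279-149636308, minus strand) lies just after its RefSeq starts and that of Dnajb6 (chr5:29735844-29735873, plus strand) before them, with the match in capitals.
Hsph1: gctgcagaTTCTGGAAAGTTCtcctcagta
Dnajb6: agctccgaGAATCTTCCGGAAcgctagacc
The core of the hypoxia response element, searched as ACGTG on both strands, was in 18 of the 62 genes (29.0%) and in 21.8% of all 27025 genes with a promoter. Of the 18 genes 5 rose, 8 fell, 2 were not called and 3 were not tested. Of the tested genes without it 9 rose, 13 fell and 13 were not called. A match is a description of the letters and shows no binding, and the search with fixed letters misses variants of each motif. Promoters of 15 members, Dnajc5, Hspa8 and Hsp90aa1 among them, were not analysed here.

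Rows with several gene names hold 5 further family genes and are outside the set. The row of Dnaja3 (the mitochondrial J protein TID1) and Vasn was at 48.5 and 59.3 FPKM and was called higher, and that of Dnajc14 and Sarnp, at 93.0 and 68.6 FPKM, was called lower. The rows of Hspa14 and Gm45902 (74.7 and 66.6 FPKM), of Dnajc25, Gm20503 and Gng10 (28.8 and 30.7 FPKM) and of Cct6a were not called. In these rows the level of the family gene itself is uncertain.

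Near-identical copies bear on several levels. In 9 tested genes at least 10% of the 50-base words of the longest transcript also occur in another gene, and the sources used here do not say how the authors assigned such reads. The share was 58.5% for Hsp90aa1 and 51.4% for Hspa8, mostly with the pseudogenes Gm12346 (4.95 and 5.11 FPKM) and Gm15459 (27.6 and 24.3 FPKM), neither of which was called. It was 51.6% for Hspb1, whose copy Hsp25-ps1 fell from 2.39 to 1.23 FPKM (q = 0.000875 in the authors' deposited table). The share was 35.8% for Dnajb6, 18.9% for Dnajc17 and 18.7% for Dnaja1. Gm15542, which shares most with Dnaja1, fell as Dnaja1 did, from 11.1 to 4.99 FPKM (q = 0.0332 in the authors' deposited table). Gm6257, which shares most with Dnajc17, stood at 0.589 and 0.294 FPKM and was not called. For Hsp90b1, Hspa4l and Cct3 the share was at most 1.46%. The gene 1810014B01Rik overlaps 10.3% of the exonic length of Hsp90b1 on the other strand, and Wdr61 overlaps 44.1% of that of Dnaja4.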

How the data were processed

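Stranded mRNA libraries were made from frozen fibroblast pellets after selection of poly-A RNA, per the protocols in the labels. The submitters' processing notes name HISAT2 2.1.0, StringTie 1.3.4d, Cufflinks, GRCm38 and Cuffdiff 2.2.1. The authors deposited 1 table with 1 FPKM per gene and condition, the log2 fold change of hypoxia over normoxia, a test score (not used), p-value and q-value. The sources used here do not say how libraries were scaled. The 53207 rows were reduced to 51482 measurements, 14575 of them tested, by counting rows that repeat 1 measurement once.

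No test of replicates was possible with 1 value per condition. Calls are the authors', and folds are ratios of their FPKM values. Members, lists, alternatives and the naming rule were chosen with earlier results of these data known. Every member may be named. Those called with at least 5 FPKM in the higher condition and 1.5-fold get full values, and from each partner list up to 4 called genes with the largest fold and up to 2 against the majority are named, besides Trap1, Hyou1, Hsf1, Grpel1 and Grpel2 and others chosen after their values were seen. Hspbap1 was moved from the ER list to the list of other heat shock genes after its value was seen. Gene coordinates are 1-based from GENCODE M21 (GRCm38), and promoters are from RefSeq (GRCm38.p6), matched by symbol for 62 of 77 members. Overlaps of exons, and the 50-base words that a member's longest transcript shares with transcripts of other genes, come from GENCODE M21. For 4 members (Hspa12a, Hspa13, Dnajc4 and Dnajc18) the deposited locus does not span the whole annotated gene. For others besides Tcp1 it is longer than the gene, among them Dnajc30 (7.77 times), Hspb6 (6.34), Hspe1 (4.24), Dnajc7 (3.46) and Dnaja1 (2.52). Python 3.11.15 and pandas 2.3.3 were used. Only the motif search and a routine for q values, which made none of the calls, were tested on simulated data. Partner genes not named are counted only.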

Additional observations from a re-analysis of the deposited data

How the results depend on the processing

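Rescaling by the median of ratios (log2 shift 0.0064) or to the same sum (0.22) moves every gene alike, by less than the smallest called rise (Hspa9, 0.35), and so could turn no called gene round. The q values were not recomputed, so it is unknown which calls would be kept. Under the shift of 0.22 the rises of Hspa9, Dnajb6 (0.36) and Hsp90ab1 (0.41) would be much smaller. A q below 0.01 left 17 rises and 23 falls of 18 and 25. Asking for at least 1.5-fold left 10 rises and 18 falls (17.9% and 19.1% of all tested measurements), and at least 2-fold left 4 and 9 (9.03% and 9.87%). With rows of several gene names there were 19 rises and 26 falls, a setting chosen after seeing the data.

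The summed FPKM of the table was 1.17 times higher in hypoxia. Rescaling to the same sum moved the median of all measurements to -0.19 and that of the members from -0.19 to -0.36 on the log2(FPKM + 1) scale. Under it the log2 ratio of summed FPKM was 0.28 for HSP90, -0.38 for HSP70 and HSP110, -0.73 for small heat shock proteins and -0.60 for the mitochondrial chaperonin. It was -0.92 for class A J proteins, -0.18 for class B (0.040 as deposited), -0.016 for class C (0.21 as deposited) and -0.15 for TRiC (0.078 as deposited), so the last 3 changed sign; the cause was the scaling itself. No paired analysis was possible because the table holds no values of single samples, and for the same reason no replicate could be left out. The depth is unknown.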
